A study of Homo sapiens with 3 samples.

Results

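Natural antisense transcripts are RNAs made from the strand opposite to a named gene, and 379 of them were expressed in teratomas grown from H1 cells, out of 1071 antisense symbols and 27307 genes measured. They were chosen from the gene symbol and the measured level: a name made of a gene's symbol followed by AS and at most 1 digit, a length of at least 200 bases and a mean of at least 1 RPKM over the 3 libraries. RPKM counts the reads of a transcript for each 1000 bases of its length and each 1000000 reads of the library. Antisense transcripts of the HOX and GNAS loci were left out. The level of the antisense transcripts was thus fixed by their choice and is given as a description. What the choice did not use is the level of the gene named in each symbol, called the sense gene here, which was measured for 375 of the 379 transcripts and came to 368 distinct genes. The 4 transcripts without a match under that name were RPARP-AS1, ZNF295-AS1, KRTAP5-AS1 and JHDM1D-AS1.

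H1 is an established cell line derived from a human embryo, pluripotent in culture, and a teratoma is the mixed tumour that such cells form in an immunodeficient host. Per the labels, 1000000 H1 cells were injected under the skin of SCID-beige mice and the tumours were collected 3 to 4 weeks later. The 3 libraries of polyadenylated RNA, called teratomas 1, 2 and 3 by replicate number, form 1 group with no other condition, and the labels do not state that each came from a tumour of its own, so the spread between libraries may be partly technical. The totals behind the RPKM values were 46243199, 45815401 and 43605458 reads for teratomas 1, 2 and 3, which makes 3 reads worth 0.0487, 0.0492 and 0.0517 RPKM at the median length of the antisense transcripts.

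Antisense transcripts are mostly long non-coding RNAs. Some start from the same promoter region as the sense gene and run away from it, some run into its far end, and some lie within it. Individual cases are known to keep the sense gene silent, to help activate it in cis, or to act on it through its messenger RNA, and many have no known role. Several also carry small nucleolar RNAs in their introns. A library that does not record the strand cannot separate reads of opposite strands where exons overlap. The strand setting used for counting is not given in the sources used here, so reads of an antisense transcript and of the overlapping part of its sense gene cannot be told apart in these values.

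The 379 transcripts had a median length of 1331 bases (252 to 6979), against a median of 3483.5 bases for the sense entries. The kept RefSeq entry was a non-coding one for 378 of them and a coding one for DPP9-AS1. In all 375 pairs the tables list the antisense and the sense entry on opposite strands. Of these pairs, 276 could be placed in the GENCODE 29 annotation of GRCh38. The transcripts ran head to head in 161 placed pairs, with 115 of those having starts within 1000 bases, and tail to tail in 66. The antisense transcript lay inside the sense gene in 42 pairs and spanned it in 7.

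The sequences below show what a shared start region looks like, for 4 head-to-head pairs whose values are described further on: MNX1, HHIP and ATP6V0E2, where both transcripts followed the same library order, and SCAMP1, where the antisense transcript stayed nearly level while the sense gene differed. Each is the RefSeq promoter window of the antisense transcript on GRCh38.p14, from 250 bases before its start to 50 bases after, read 5′ to 3′ on the antisense strand. Capitals mark bases that also lie in the promoter window of the sense gene. The MNX1-AS1 window lies at chr7:157010607-157010906 on the plus strand and shares 293 bases with the MNX1 window, the starts being 194 bases apart. The HHIP-AS1 window lies at chr4:144645970-144646269 on the minus strand and shares 236 bases, with starts 137 bases apart. The ATP6V0E2-AS1 window lies at chr7:149873813-149874112 on the minus strand and shares 206 bases, with starts 107 bases apart. The SCAMP1-AS1 window lies at chr5:78360492-78360791 on the minus strand and shares 175 bases, with starts 76 bases apart.
MNX1-AS1: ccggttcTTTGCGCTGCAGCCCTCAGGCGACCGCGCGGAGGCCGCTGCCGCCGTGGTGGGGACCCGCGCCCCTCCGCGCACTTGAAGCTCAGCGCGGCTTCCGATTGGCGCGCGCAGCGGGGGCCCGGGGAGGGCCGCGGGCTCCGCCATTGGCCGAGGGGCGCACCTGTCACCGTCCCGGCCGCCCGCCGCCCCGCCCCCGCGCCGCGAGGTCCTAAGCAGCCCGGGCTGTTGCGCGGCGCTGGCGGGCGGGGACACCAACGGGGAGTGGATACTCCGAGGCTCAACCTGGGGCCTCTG
HHIP-AS1: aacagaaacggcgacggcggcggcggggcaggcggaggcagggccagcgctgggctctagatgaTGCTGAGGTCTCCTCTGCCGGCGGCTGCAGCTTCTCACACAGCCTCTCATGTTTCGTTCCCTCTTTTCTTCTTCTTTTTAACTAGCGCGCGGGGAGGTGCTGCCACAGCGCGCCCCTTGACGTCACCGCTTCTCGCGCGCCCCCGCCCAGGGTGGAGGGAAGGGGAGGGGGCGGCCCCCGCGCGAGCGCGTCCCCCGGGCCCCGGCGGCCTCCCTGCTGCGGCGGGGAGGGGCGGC
ATP6V0E2-AS1: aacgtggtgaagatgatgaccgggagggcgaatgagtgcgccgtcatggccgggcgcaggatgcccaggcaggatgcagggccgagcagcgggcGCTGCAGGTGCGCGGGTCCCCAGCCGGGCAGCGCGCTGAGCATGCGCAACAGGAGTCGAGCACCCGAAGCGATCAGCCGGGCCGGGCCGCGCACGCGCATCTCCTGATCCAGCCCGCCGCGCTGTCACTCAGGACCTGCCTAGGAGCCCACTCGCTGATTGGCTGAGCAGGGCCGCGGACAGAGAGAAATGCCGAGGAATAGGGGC
SCAMP1-AS1: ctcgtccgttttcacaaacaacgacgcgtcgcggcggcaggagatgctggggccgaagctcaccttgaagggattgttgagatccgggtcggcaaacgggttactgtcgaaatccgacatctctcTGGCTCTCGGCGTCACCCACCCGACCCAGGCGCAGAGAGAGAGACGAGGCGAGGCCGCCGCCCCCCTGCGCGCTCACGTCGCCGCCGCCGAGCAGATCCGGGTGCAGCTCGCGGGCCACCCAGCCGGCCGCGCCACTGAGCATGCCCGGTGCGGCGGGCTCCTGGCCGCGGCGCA

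The RefSeq promoter table held an entry for 252 of the 379 antisense transcripts, 309 windows in all, and for both transcripts in 223 pairs. In 52 pairs the windows overlapped and the transcripts ran apart from their starts, with a median of 207 shared bases. Pairs whose transcripts run across each other's starts were not counted, even where their windows overlap. Windows of the expressed antisense transcripts had a median GC content of 63.7%, against 54.7% for the other antisense symbols and 58.7% for all 34961 windows. The letters GGGCGG, on either strand, stood in 53.7% of their windows, against 45.0% of all windows. The letters CCAAT stood in 29.4% against 34.6%, and TATAAA in 7.44% against 11.5%. The 503 windows of the sense genes had a median GC content of 64.7%. In those windows GGGCGG stood in 61.0%, CCAAT in 35.0% and TATAAA in 7.55%. The high GC content and the low share of TATAAA were thus not particular to the antisense transcripts. In the printed windows, GGGCGG stood 4 times in that of MNX1-AS1, overlapping matches counted, 3 times in that of HHIP-AS1 and 1 time in that of SCAMP1-AS1, and TATAAA in none. These are matches of letters and not tests of binding.

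Most of the antisense transcripts were present at low levels. Their mean RPKM had a median of 2.79 (quartiles 1.63 and 5.41), against 9.09 for their sense genes. Of the 379, 131 lay between 1 and 2 RPKM, 144 between 2 and 5, 56 between 5 and 10, 42 between 10 and 50, and 6 above 50. In 311 cases the level reached 1 RPKM in each of the 3 teratomas. Together they took 0.702%, 0.702% and 0.652% of the gene reads of teratomas 1, 2 and 3. A single antisense transcript had from 3 to 50394 reads in a library, with a median of 186, and the intervals of the lowest ones are correspondingly wide. The level of 1 RPKM was reached by 36.2% of all antisense symbols and by 57.5% of all genes, and was the rule of choice. Just inside it lay LPP-AS2, OGFR-AS1 and MTOR-AS1 with means of 1.001, 1.002 and 1.002 RPKM, and just outside it CCDC18-AS1, RNF139-AS1 and PPP4R1-AS1 with 0.999, 0.992 and 0.981 RPKM.

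In these values, a few antisense transcripts stood as high as many coding genes. VIM-AS1, named for the intermediate filament gene VIM of mesenchymal and neural precursor cells, stood at 581, 512 and 400 RPKM in teratomas 1, 2 and 3, and VIM itself at 1098, 981 and 787 RPKM. Both were lowest in teratoma 3, and the difference, antisense minus sense, was −0.94 ± 0.03 on the log2(RPKM + 1) scale (SD, n = 3). MIF-AS1 stood at 203, 175 and 158 RPKM, and MIF, which encodes a secreted inflammatory cytokine, at 745, 641 and 579 RPKM, again in the same order of libraries. MIF-AS1 had 20598, 17573 and 15112 reads and MIF 19326, 16481 and 14163. The ratio of their RPKM was 0.273 in each teratoma. PTOV1-AS2 stood at 36.2, 30.4 and 27.4 RPKM, and PTOV1 at 123, 102 and 102 RPKM, with the highest level of each in teratoma 1. None of these pairs was placed in GENCODE, and reads shared by the antisense and the sense transcript cannot be told apart here.

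LRRC75A-AS1 was the highest antisense transcript to exceed its sense gene. It is a host transcript of small nucleolar RNAs, and it stood at 410, 422 and 280 RPKM in teratomas 1, 2 and 3, against 4.45, 4.30 and 5.96 RPKM for LRRC75A. The difference was 5.96 ± 0.54 on the log2(RPKM + 1) scale (SD, n = 3), and 9.45 with the entries of each symbol summed. The antisense transcript was lowest in teratoma 3, the library in which LRRC75A was highest. PCNA-AS1 stood at 104, 86.1 and 51.3 RPKM, against 64.6, 54.4 and 36.0 RPKM for PCNA, the sliding clamp of DNA replication. This entry is 384 bases long, and when the entries of each symbol were summed, the PCNA-AS1 level lay below that of PCNA, with a difference of −0.35 on the log2(RPKM + 1) scale. FGD5-AS1 stood at 58.9, 55.4 and 67.6 RPKM, against 2.09, 2.13 and 1.58 RPKM for FGD5, an exchange factor for the GTPase CDC42 known from endothelium. Here teratoma 3 was highest for the antisense transcript and lowest for the sense gene.

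**Figure D1:**
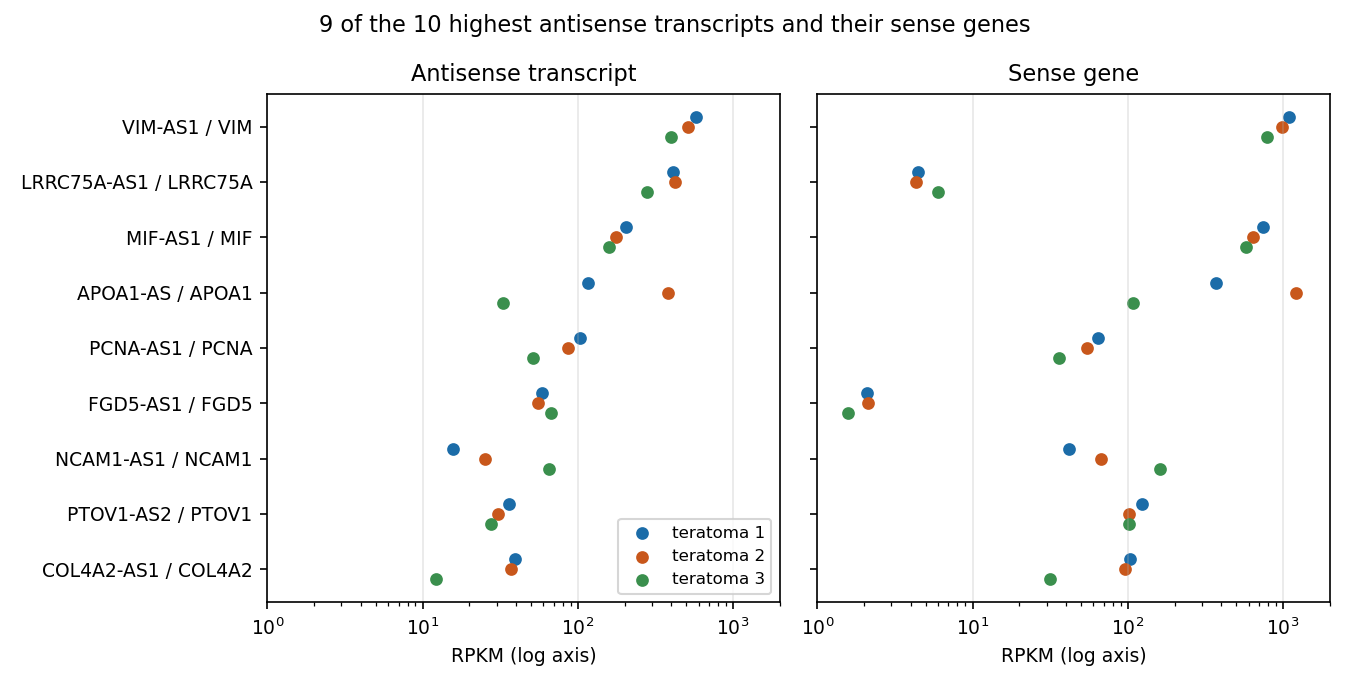
RPKM on a log axis of 9 of the 10 antisense transcripts with the highest mean (left) and of their sense genes (right), 1 point per teratoma. LRRC75A-AS1 and FGD5-AS1 lie far to the right of their sense genes, PCNA-AS1 slightly to the right, and the other 6 to the left of theirs.

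In most pairs the antisense transcript was below its sense gene. It was lower in all 3 teratomas in 290 of 375 pairs (77.3%), against 85.4% of the 1045 antisense symbols of any level whose sense gene was measured. It was higher in all 3 in 44 pairs (11.7%), against 5.84% of those 1045, and 41 pairs were mixed. Because the antisense transcripts were chosen for a mean of at least 1 RPKM, a higher share above the sense gene than among all antisense symbols follows from the choice. The median difference, antisense minus sense, was −1.35, −1.31 and −1.32 on the log2(RPKM + 1) scale in teratomas 1, 2 and 3 (mean −1.33 ± 0.02, SD, n = 3), against a mean of −1.65 ± 0.02 over all 1045. The difference of a pair varied between libraries with a median SD of 0.20. In 32 pairs the antisense level was at most 0.1 times the sense level in all 3 libraries, and in 24 pairs it was at least 2 times the sense level in all 3. For a single pair, the smallest two-sided p that exact sign flips over 3 libraries allow is 0.25, so no p is given.

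**Figure D2:**
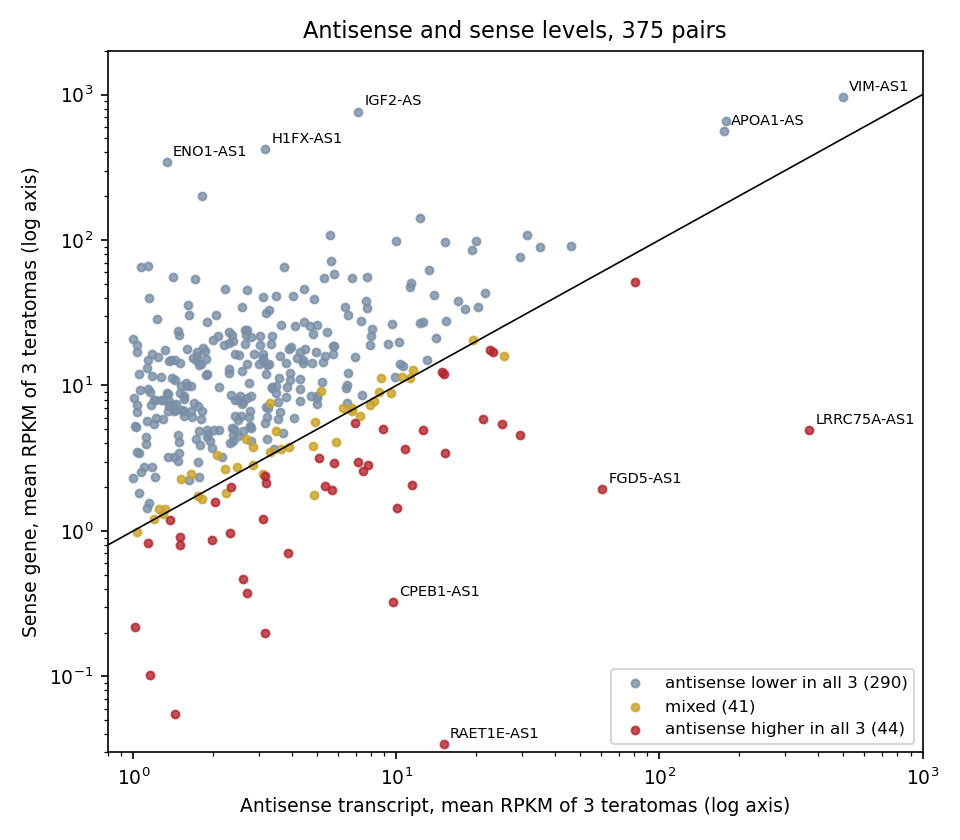
Mean RPKM over 3 teratomas of each antisense transcript (horizontal, log axis) and its sense gene (vertical, log axis), 375 pairs, with the line of equal levels. Colours mark the 290 pairs with the antisense transcript lower in each teratoma, the 44 with it higher in each and the 41 mixed ones, and points below the line have the higher antisense mean, with RAET1E-AS1, CPEB1-AS1, FGD5-AS1 and LRRC75A-AS1 farthest below.

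On the log2(RPKM + 1) scale, the largest excess over the sense gene after those of LRRC75A-AS1 and FGD5-AS1 was that of RAET1E-AS1. With a pseudocount of 0.1 in place of 1, RAET1E-AS1 came first, with 6.84, against 6.20 for LRRC75A-AS1 and 4.91 for FGD5-AS1. RAET1E-AS1 stood at 18.1, 13.5 and 13.8 RPKM, against 0.0509, 0.0514 and 0 RPKM for RAET1E, a stress-induced ligand of a natural killer cell receptor, which had 2, 2 and 0 reads. CPEB1-AS1 stood at 10.8, 9.65 and 8.58 RPKM, against 0.266, 0.219 and 0.482 RPKM for CPEB1, which binds messenger RNA and controls its polyadenylation in the cytoplasm. TAPT1-AS1 stood at 35.6, 32.5 and 20.2 RPKM, against 3.78, 3.94 and 6.07 RPKM for TAPT1. In both pairs teratoma 3 was lowest for the antisense transcript and highest for the sense gene. GENCODE places 30.4% of the CPEB1-AS1 bases in CPEB1 exons and 46.7% in exons of any other gene, CPEB1 included. These shares are 0% and 11.5% for TAPT1-AS1, and 0% and 70.6% for RAET1E-AS1. The part of shared reads in these antisense levels was not tested. TP73-AS1 stood at 11.2, 10.2 and 8.88 RPKM, against 1.90, 1.91 and 0.477 RPKM for TP73, a transcription factor of the p53 family, and here both were lowest in teratoma 3. Among the other transcripts above their sense genes in all 3 libraries were THAP9-AS1 (11.9, 10.5 and 12.04 RPKM, against 2.12, 2.13 and 1.95 RPKM for THAP9, a gene derived from a DNA transposase) and OIP5-AS1, which is known in zebrafish as cyrano. OIP5-AS1 stood at 9.62, 13.6 and 14.7 RPKM, against 6.32, 5.02 and 3.40 RPKM for OIP5, which encodes a centromere protein, the antisense transcript being highest where OIP5 was lowest. OIP5-AS1 was picked out after its values were seen.

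At the other end stood antisense transcripts of very abundant genes. ENO1-AS1 had 27 reads in each teratoma and stood at 1.31, 1.32 and 1.39 RPKM, against 317, 362 and 353 RPKM for ENO1, a glycolytic enzyme. The difference was −7.20 ± 0.09 on the log2(RPKM + 1) scale (SD, n = 3), −7.90 with a pseudocount of 0.1 and −8.01 with the entries of each symbol summed. GENCODE places 27.6% of the ENO1-AS1 bases in exons of ENO1. H1FX-AS1 stood at 3.32, 3.27 and 2.94 RPKM, against 507, 399 and 363 RPKM for H1FX, a linker histone. PCBP1-AS1 stood at 1.53, 1.69 and 2.24 RPKM, against 222, 203 and 176 RPKM for PCBP1, an RNA-binding protein, with the libraries in opposite order in the antisense and the sense transcript. Neither of these antisense transcripts has bases in an exon of its sense gene. SRRM2-AS1 stood at 1.20, 1.19 and 0.814 RPKM, against 67.9, 64.6 and 61.7 RPKM for SRRM2, a scaffold of the spliceosome. ID2-AS1 stood at 0.953, 1.29 and 1.16 RPKM, against 72.1, 75.1 and 52.9 RPKM for ID2, an inhibitor of bHLH transcription factors. In these 5 pairs both transcripts ranged over less than 0.5 on the log2 scale between teratomas.

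Between teratomas, 52 of the 379 antisense transcripts differed, which means here that the highest and the lowest library were at least 1 apart on the log2(RPKM + 1) scale. That is 13.7%, against 19.8% of all 15296 genes at this level, a share below the background. Of the 368 sense genes, 68 differed (18.5%). Since low values are damped on this scale and antisense transcripts are low, the shares are not matched for level. Of the 52, 24 were highest in teratoma 1, 10 in teratoma 2 and 18 in teratoma 3. Of the 3030 genes at this level that differed, 1174, 701 and 1155 were highest in these libraries (7.68%, 4.58% and 7.55% of all 15296). Teratoma 3 was lowest in 33 of the 52, and in 1788 of the 3030 genes. Without teratoma 3, 8 antisense transcripts and 8 sense genes differed. Without teratoma 1 the count was 33 for the antisense transcripts, and without teratoma 2 it was 46. The 3 tissues were not alike in cell markers either. The summed RPKM of 5 neuron markers (TUBB3, STMN2, MAP2, GAP43 and NEFL) was 662, 815 and 2185 in teratomas 1, 2 and 3, and all 5 were highest in teratoma 3. The sum of 3 mesenchyme markers (COL1A1, COL3A1 and FN1) was 1365, 1187 and 298, and that of 3 liver and yolk sac markers (AFP, APOA1 and TTR) was 896, 3269 and 291, with all 6 lowest in teratoma 3. The sum was 185, 184 and 220 for neural progenitor markers (SOX2, NES and PAX6), 62.1, 61.5 and 19.1 for hindgut and endoderm markers (CDX2 and FOXA2), 10.3, 158 and 32.5 for epidermis markers (KRT1 and KRT10) and 2.35, 11.7 and 6.35 for pluripotent cell markers (POU5F1 and NANOG). Markers of all 3 germ layers were thus present, as the label teratoma says, and no marker in these lists was at 0. In bulk tissue, fewer cells of a type and less RNA per cell cannot be told apart, and the part of cell make-up in the differences below was not tested. Whether host mouse reads were removed is not given, so a host part in the marker sums was not tested either.

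The largest range was that of APOA1-AS, opposite the gene of the main apolipoprotein of high-density lipoprotein. It stood at 116, 381 and 33.0 RPKM in teratomas 1, 2 and 3, and APOA1 at 371, 1205 and 109 RPKM. Both were highest in teratoma 2 and lowest in teratoma 3, with ranges of 3.49 and 3.46 on the log2 scale, and the difference between them was −1.67 ± 0.02 (SD, n = 3). That difference depended on the entry kept, and was −3.49 with the entries of each symbol summed and −1.28 with the longest entry of each. GENCODE places 21.8% of the bases of APOA1-AS in exons of APOA1. That share times the mean APOA1 level gives 122.7 RPKM, beside a mean of 176.6 RPKM for APOA1-AS. Of the 193 placed pairs with shared bases, the antisense level was within 2 times such a product in 109, above that in 59 and below it in 25. In these products the share counts exons of any transcript of the sense gene, while the level is that of its kept entry. For APOA1-AS the share is 21.8% either way, but in other pairs it can be larger than the share in the kept entry. The part of shared reads in the APOA1-AS level and range was not tested. IGF2-AS stood at 12.4, 7.17 and 1.87 RPKM, and IGF2, an imprinted fetal growth factor, at 1062, 1044 and 180 RPKM. PCOLCE-AS1 stood at 7.59, 4.47 and 1.35 RPKM, and PCOLCE, which promotes collagen maturation, at 81.6, 43.2 and 12.9 RPKM. COL4A2-AS1 stood at 39.4, 37.3 and 12.2 RPKM, and COL4A2, a collagen of basement membranes, at 104, 95.4 and 31.3 RPKM. In these 3 pairs both transcripts were highest in teratoma 1 and lowest in teratoma 3. Of the 3 mesenchyme markers, COL1A1 had that order (699, 475 and 128 RPKM), while COL3A1 and FN1 were highest in teratoma 2 and lowest in teratoma 3. The share of antisense bases in exons of any transcript of the sense gene was 17.1% for IGF2-AS, 16.4% for PCOLCE-AS1 and 15% for COL4A2-AS1.

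Some of the other pairs with the largest ranges had the opposite order. GRM5-AS1 stood at 0.480, 2.32 and 7.49 RPKM in teratomas 1, 2 and 3, and GRM5, a metabotropic glutamate receptor, at 0.589, 2.41 and 7.94 RPKM. NCAM1-AS1 stood at 15.7, 25.1 and 65.1 RPKM, and NCAM1, the neural cell adhesion molecule, at 41.6, 67.4 and 160.4 RPKM. CADM3-AS1 stood at 7.23, 13.3 and 31.1 RPKM, and CADM3, an adhesion molecule of axons, at 15.9, 30.0 and 69.0 RPKM. In each of these pairs both transcripts were highest in teratoma 3, next in teratoma 2 and lowest in teratoma 1, as the sum of the neuron markers was. CHL1-AS1 stood at 0.523, 2.35 and 5.12 RPKM, and CHL1-AS2, another antisense transcript of the same gene, at 1.10, 3.16 and 3.85 RPKM, beside 7.34, 20.5 and 43.7 RPKM for CHL1, a neural adhesion molecule of the L1 family. The 2 antisense transcripts share that sense gene and are not independent of each other. Of the GRM5-AS1 bases, 23.4% lie in exons of the GRM5 entry whose RPKM is given and 90.5% in exons of any GRM5 transcript, so the part of shared reads in these near-equal values cannot be told apart. The shares are 31.1% and 51.3% for NCAM1-AS1, and 13.0% and 26.1% for CHL1-AS1, and CADM3-AS1 was not placed.

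**Figure D3:**
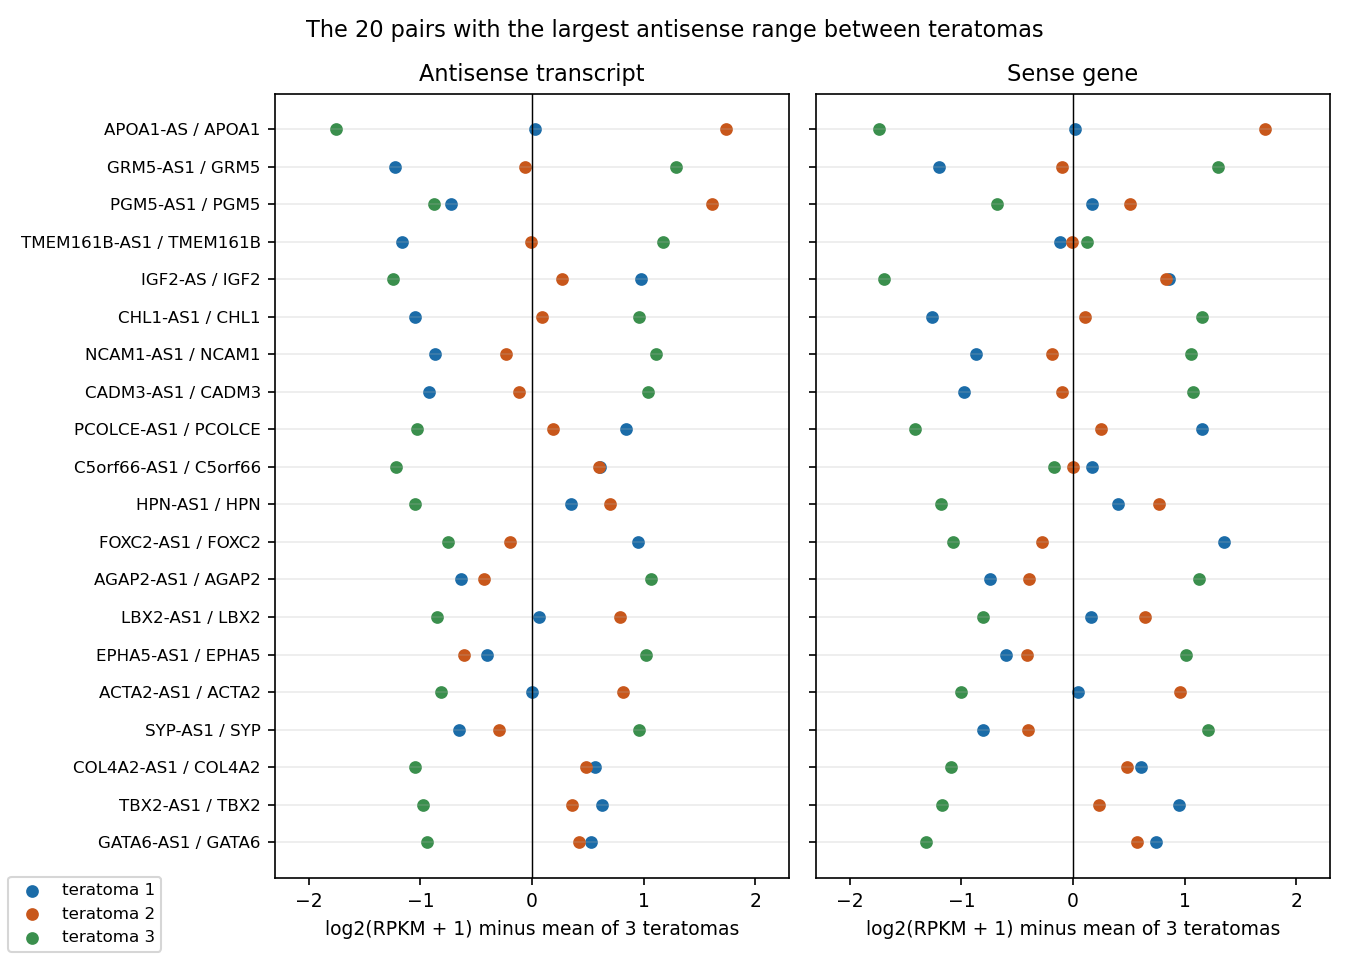
Deviation of each teratoma from the mean of the 3 on the log2(RPKM + 1) scale, for the 20 antisense transcripts with the largest range (left) and their sense genes (right). The points keep a like order on both sides in most rows, while TMEM161B and C5orf66 spread far less on the right.

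In most pairs whose antisense transcript differed, the sense gene differed in a like way. Of the 52 transcripts 49 had a measured sense gene, and in 39 of these the sense gene also differed by at least 1. The highest library was the same in 44 of the 49, the highest and the lowest both the same in 41, and in 0 pairs in which both differed were the highest and the lowest library exchanged. Over all 375 pairs, the highest and the lowest library were both shared in 159 (42.4%), against 30.4% of all 1045 antisense symbols, most of which were below 1 RPKM, so that the shares are not matched for level. The 2 transcripts of a pair were measured in the same 3 libraries, so a library that stands apart for many genes can move both.

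Pairs were also grouped by how much of the antisense transcript lies in exons of the sense gene. In GENCODE, 33 of the 276 placed pairs had at least 50% of the antisense bases in exons of any transcript of the sense gene, 160 had fewer, and 83 had none. The difference between antisense and sense varied between teratomas with a median SD of 0.12 in the pairs at 50% or more, 0.20 in those below and 0.25 in those with no shared base. The highest and the lowest library were both shared in 45.5% of the pairs at 50% or more, 50.6% of those below and 32.5% of those with no shared base, so that this measure did not follow the order of the SDs. The median difference was −0.66, −1.61 and −1.36 in these groups, in that order, on the log2(RPKM + 1) scale. These are descriptions, since the groups also differ in level: the median antisense RPKM was 5.01 at 50% or more, 2.59 below that and 2.68 with no shared base. CERS6-AS1, opposite a ceramide synthase gene and with 97.5% of its bases in CERS6 exons, stood at 17.97, 21.6 and 28.2 RPKM, against 13.99, 16.3 and 22.5 RPKM for CERS6. RBM5-AS1, opposite a splicing regulator, stood at 4.99, 4.83 and 5.21 RPKM, against 27.5, 25.6 and 25.5 RPKM for RBM5. Of the RBM5-AS1 bases, 72.7% lie in exons of any RBM5 transcript but 10.4% in those of the RBM5 entry whose RPKM is given, while for CERS6-AS1 both shares are 97.5%. Both pairs were picked out after their values were seen.

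**Figure D4:**
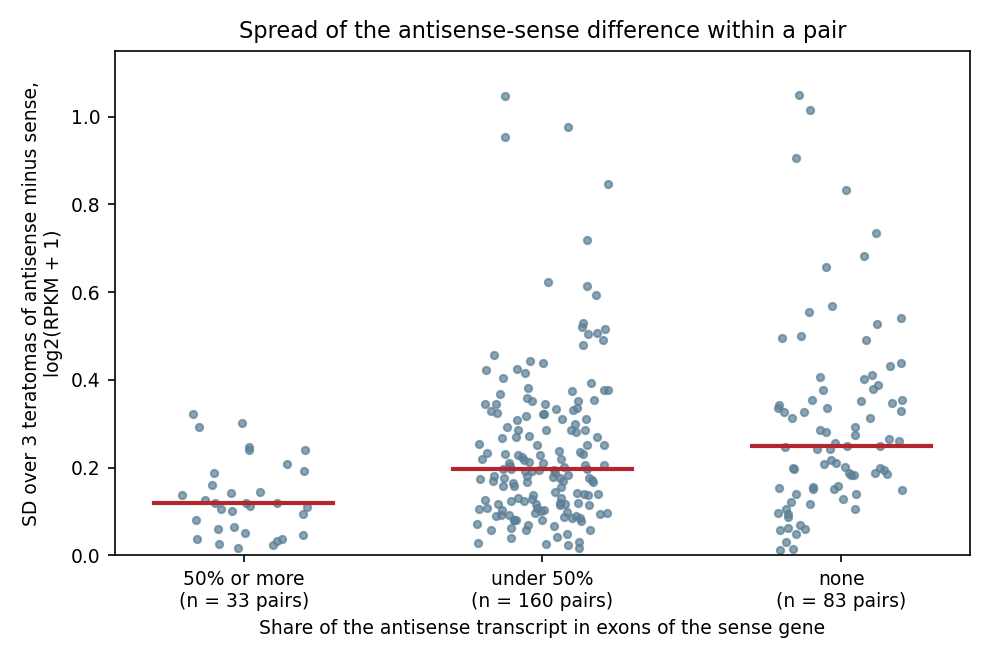
SD over 3 teratomas of the antisense minus sense difference on the log2(RPKM + 1) scale, 1 point per placed pair, by the share of antisense bases in exons of the sense gene. Lines are medians, 0.12 at 50% or more (33 pairs), 0.20 under 50% (160 pairs) and 0.25 with none (83 pairs), and the points are spread sideways for visibility only.

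The 83 pairs without a shared exon base bear on the antisense transcripts with less of this limit. In 14 of them (16.9%) the antisense transcript was above the sense gene in all 3 teratomas and in 63 below. Of the 83 antisense transcripts, 10 differed between teratomas, beside 13.7% of all 379 and 19.8% of all genes at this level. Both shares also stand beside the count for the 59 pairs below. The highest and the lowest library were both shared in 27 of them (32.5%). The 30.4% over all 1045 antisense symbols is no matched reference, since most of those were below 1 RPKM. Of the 83, 59 have no base in an exon of any other gene, and among these 9 were above the sense gene in all 3 teratomas, 9 differed between teratomas and 18 (30.5%) shared both libraries. GATA6-AS1 stood at 4.74, 4.32 and 1.08 RPKM in teratomas 1, 2 and 3, and GATA6, a transcription factor of endoderm and heart, at 31.4, 27.9 and 6.75 RPKM. TBX2-AS1 stood at 2.36, 1.79 and 0.104 RPKM, the last from 3 reads, and TBX2, a T-box repressor of organ formation, at 12.6, 7.27 and 2.11 RPKM. MNX1-AS1 stood at 2.34, 1.64 and 0.232 RPKM, and MNX1, a homeobox factor of motor neurons and pancreas, at 17.0, 13.3 and 3.45 RPKM. In each of these pairs, as in the shared window printed for MNX1, the transcripts start close to each other and run apart, and both were lowest in teratoma 3. CEBPA-AS1 stood at 3.04, 3.91 and 1.10 RPKM, and CEBPA, a factor of liver, fat and myeloid cells, at 20.6, 37.7 and 8.11 RPKM, both highest in teratoma 2. HHIP-AS1 stood at 5.06, 3.18 and 1.24 RPKM, and HHIP, an antagonist of hedgehog ligands, at 2.99, 2.94 and 1.17 RPKM, so that here the antisense transcript was the higher one in all 3 teratomas. ATP6V0E2-AS1, whose printed window shares 206 bases with that of its sense gene, stood at 1.75, 2.10 and 4.24 RPKM, and ATP6V0E2, a subunit of the vacuolar proton pump, at 29.1, 33.8 and 72.5 RPKM. Both were highest in teratoma 3, but 20.9% of the bases of this antisense transcript lie in exons of other transcripts of the sense gene, so it is not among the 83. The pairs in this paragraph were picked out after their values were seen.

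In some pairs 1 transcript differed between teratomas while the other ranged over less than 0.5 on the log2(RPKM + 1) scale. These 13 pairs were found by looking at the values. In 4 the antisense transcript differed and in 9 the sense gene. TMEM161B-AS1 stood at 1.13, 3.74 and 9.76 RPKM in teratomas 1, 2 and 3, from 35, 115 and 286 reads, and TMEM161B, which encodes a membrane protein, at 1.56, 1.75 and 2.03 RPKM. The antisense transcript was below its sense gene in teratoma 1 and above it in teratomas 2 and 3. C5orf66-AS1 stood at 4.77, 4.74 and 0.626 RPKM, and C5orf66 at 11.0, 9.70 and 8.46 RPKM. PIK3CD-AS2 and PRKAG2-AS1 were the other 2, the sense genes being a catalytic subunit of PI3-kinase and a regulatory subunit of AMP-activated kinase. MMP24-AS1 was nearly level, at 25.5, 25.7 and 25.6 RPKM, while MMP24, a membrane-bound metalloproteinase of neural tissue, stood at 7.70, 10.9 and 28.9 RPKM. SCAMP1-AS1, whose printed window shares 175 bases with that of SCAMP1, stood at 4.92, 5.00 and 5.73 RPKM, while SCAMP1, a carrier protein of secretory membranes, stood at 6.45, 8.48 and 16.9 RPKM. UGDH-AS1 stood at 1.49, 1.54 and 1.45 RPKM, while UGDH, which makes the precursor of glycosaminoglycans, stood at 31.7, 23.4 and 11.1 RPKM. MMP24 and SCAMP1 had the library order of the sum of the neuron markers, and UGDH that of COL1A1 but not of the other 2 mesenchyme markers, while the antisense transcript ranged over 0.01 in MMP24-AS1, 0.18 in SCAMP1-AS1 and 0.06 in UGDH-AS1 on the log2 scale. The sense gene alone differed also in A2M, FGF14, MAGI2, MYLK, RAB30 and TRAF3IP2. PGM5-AS1 was not among the 13, since both of its transcripts differed: it stood at 0.332, 5.74 and 0.196 RPKM from 9, 154 and 5 reads, and PGM5, a protein of muscle adhesion sites, at 3.58, 4.79 and 1.53 RPKM.

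**Figure D5:**
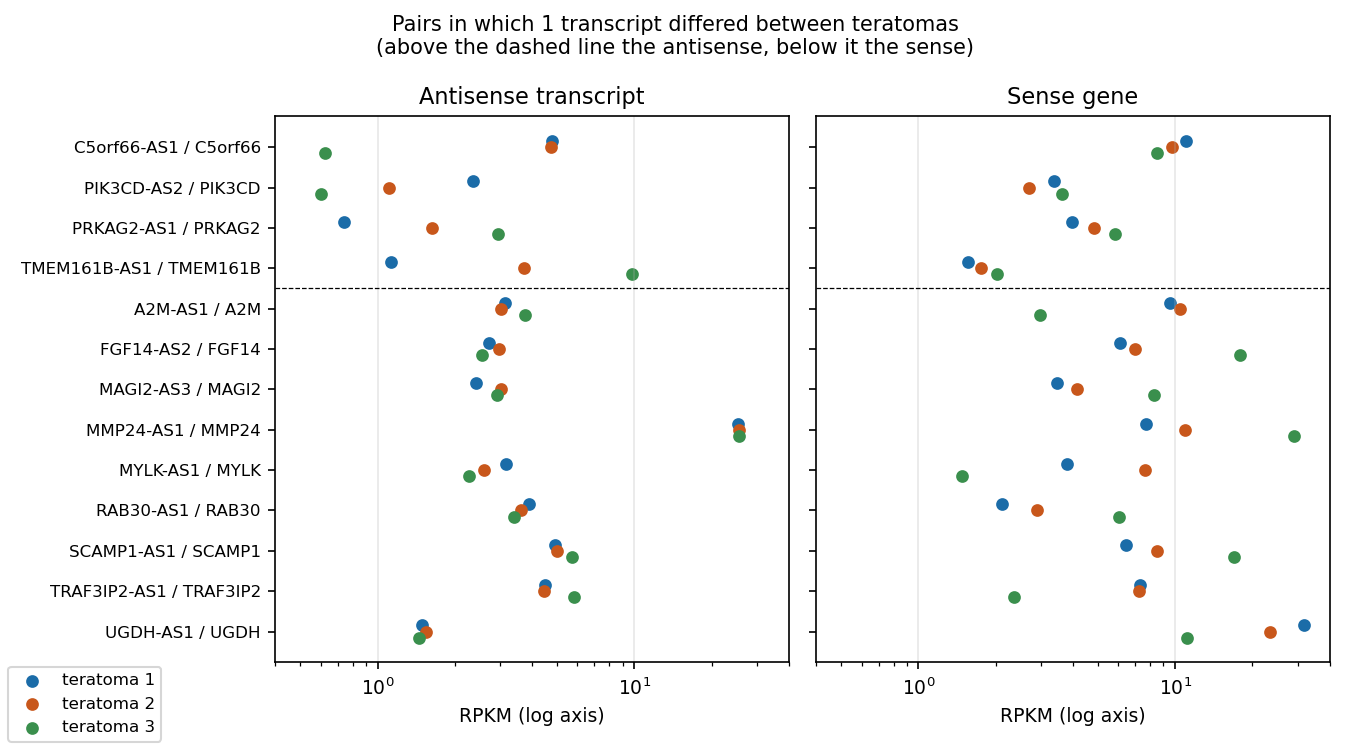
RPKM on a log axis of antisense transcripts (left) and sense genes (right), 1 point per teratoma, for the 13 pairs in which 1 transcript differed between teratomas and the other ranged over less than 0.5 on the log2(RPKM + 1) scale. In the 4 upper rows the left points spread and in the 9 lower rows the right ones, with MMP24-AS1 at 25.5 to 25.7 RPKM.

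Grouped by the role of the sense gene, antisense transcripts of developmental transcription factors differed between teratomas in 7 of 18 cases. The share was 13.7% among all 379 antisense transcripts and 19.8% among all genes at this level. The median range was 0.76, beside 0.40 for all 379 antisense transcripts and 0.45 for all genes at this level. The 7 were those of LHX5, DLX6, GATA6, FOXD2, LBX2, TBX2 and MNX1. FOXC2 and HLX, also developmental transcription factors, are not in this list, and their antisense transcripts differed as well. The count therefore holds for the list, which was not tested against either share. LHX5-AS1, opposite a LIM homeobox factor of the forebrain, stood at 9.93, 10.2 and 22.3 RPKM, and LHX5 at 13.1, 18.5 and 31.9 RPKM. DLX6-AS1, whose mouse counterpart Evf2 is known to act on the neighbouring Dlx genes in forebrain interneurons, stood at 7.998, 8.19 and 17.5 RPKM, and DLX6 at 9.64, 8.36 and 15.8 RPKM. In both pairs teratoma 3 was highest for each transcript. The difference, DLX6-AS1 minus DLX6, was −0.042 ± 0.19 on the log2(RPKM + 1) scale (SD, n = 3) and 0.058 without teratoma 1, so neither can be called the higher.

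In the list of matrix, adhesion and cytoskeleton genes, 3 of 12 antisense transcripts differed, among them COL4A2-AS1 and ACTA2-AS1. Here and in the lists that follow, the share among all 379 antisense transcripts was 13.7% and that among all genes at this level 19.8%, and no list was tested against either. ACTA2-AS1, opposite smooth muscle actin, stood at 3.69, 7.24 and 1.67 RPKM, and ACTA2 at 13.6, 26.7 and 6.10 RPKM, both highest in teratoma 2. In the list of neuronal and synaptic genes, 2 of 9 differed, NCAM1-AS1 and EPHA5-AS1, and 8 of the 9 were highest in teratoma 3, against 44.9% of all 379 antisense transcripts. The list is not complete: GRM5, CADM3 and CHL1, described above, are not in it, and their antisense transcripts differed as well. The count therefore holds for the list and not for all neuronal genes. SEMA6A-AS1, opposite an axon guidance protein, stood at 17.0, 16.7 and 21.1 RPKM, and SEMA6A at 33.7, 28.5 and 39.1 RPKM. EPHA5-AS1 stood at 1.29, 0.983 and 5.14 RPKM, and EPHA5, a receptor in axon guidance, at 1.18, 1.47 and 5.66 RPKM. In the list of RNA processing, translation and protein quality control 1 of 22 differed, TNRC6C-AS1, and in that of mitochondria and metabolism 1 of 16, PGM5-AS1. PGM5 is described above as a protein of muscle adhesion sites, so its place in a list of metabolism is loose. NCBP2-AS2, opposite a subunit of the nuclear cap-binding complex, stood at 22.01, 22.1 and 20.8 RPKM, and NCBP2 at 36.6, 41.4 and 50.7 RPKM. NDUFB2-AS1, opposite a subunit of respiratory complex I, stood at 8.36, 7.68 and 7.11 RPKM, and NDUFB2 at 59.9, 53.4 and 53.3 RPKM. The lists are of unequal size and level, and no list was tested against another.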

How the data were processed

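RNA-seq of 3 teratoma libraries of polyadenylated RNA was used, 1 deposited table each. The deposited RPKM values and the raw read counts per RefSeq transcript are the authors' own. Bowtie2 and hg19 are named in the submitters' processing notes. The sources used here do not give the counting tool, the strand setting or whether host mouse reads were removed. The other deposited columns give length and a last number read as genome placements, and 375 of the 379 antisense entries have 1.

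Each of 59443 entries was assigned to its symbol and the entry with the highest mean RPKM was kept, which left 27307 genes. Comparisons used log2(RPKM + 1), a scale on which differences of low transcripts look smaller. The kept entries were looked up in GENCODE 29 (257 antisense entries by accession and 19 by symbol, with a length within 20%), used only for arrangement and shared exons, since the files carry no coordinates and name another build. Promoter sequences are RefSeq's on GRCh38.p14. All 3 libraries form 1 group, so no model was fitted, and intervals and floors cover counting error only. The mean chi-square over the antisense transcripts was 21.0 between teratomas 1 and 2, 68.5 between 1 and 3 and 62.6 between 2 and 3. Sampling noise alone gives a mean near 1. Transcripts with many reads weigh most in such a mean, so it does not describe a typical antisense transcript.

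Named were the 10 highest antisense transcripts, the 6 with the largest and the 6 with the smallest difference to the sense gene, the 10 with the largest range, the 2 highest of each of 5 lists, and the 3 on either side of 1 RPKM. A few results that these rules would name are not reported here. Others are named as picked out after their values were seen, or listed where a count was small. The members, lists and markers were chosen with earlier results of these data known. Alternatives covered the level, pseudocount, entry kept, scaling, filters and each library left out. Python 3.11.15, numpy 2.4.6, pandas 2.3.3, scipy 1.17.1 and matplotlib 3.10.9 were used, and the calls were tested on simulated data.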

Additional observations from a re-analysis of the deposited data

How the results depend on the processing

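The 379 antisense transcripts became 248 at a level of 2 RPKM and 572 with RPKM rescaled to 1000000 per library, which raises every value, and 371 to 381 with 1 library left out. The 44 pairs with the antisense transcript above in all libraries became 24 when at least 2 times was asked and 46 to 50 with 1 library left out. The median difference of −1.33 became −1.57 with a pseudocount of 0.1, −1.60 with 0.01 and −1.95 with the entries of a symbol summed, and lay between −1.33 and −1.32 with 1 library left out. The 52 antisense transcripts that differed between teratomas became 91 with a pseudocount of 0.1, 6 at a range of 2, 82 after rescaling, which also moves teratoma 1 by −0.11 on the log2 scale against teratoma 3, and 12 of the 104 with a mean of at least 5 RPKM. With 1 library left out they numbered 8 to 46. The 68 sense genes became 15 at a range of 2 and 8 to 57 with 1 library left out. The 159 pairs with the same highest and lowest library became 46 of the 85 with both means at 5 RPKM or more, and 249 to 281 with 1 library left out, where only 2 libraries remain to be ordered. Pairs with no shared exon base, an alternative added after seeing the data, gave 14 above, a median difference of −1.36, 10 antisense transcripts and 15 sense genes that differed, and 27 with the same highest and lowest library, each out of 83 pairs. All 52 had 95% Poisson intervals of the highest and lowest library that lay apart, also an added alternative. The 52 were chosen for a large difference between those same libraries, and the intervals cover counting error only. This count therefore says nothing about spread between tumours. Of the single pairs named by rule, 2 changed direction: PCNA-AS1 to −0.35 with entries summed, and DLX6-AS1 to 0.058 without teratoma 1 (−0.13 to 0.058 with 1 library left out). Otherwise 171 of their values moved by less than the spread between libraries and 43 by more. No paired analysis was possible because there is only 1 group. Depth limits the lowest antisense transcripts, and shared reads limit those with overlapping exons.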
